A study of Drosophila melanogaster with 4 samples.

Results

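The combined treatment of Drosophila melanogaster Kc167 cells with an ecdysone receptor agonist and gamma rays was compared with untreated control cells, and with what the 2 treatments given alone would predict if their log2 ratios added. The comparison covered the 2492 of 13966 probe sets, or 17.84%, whose signal reached 500 units on at least 1 of the 4 arrays, and through them 2068 of 10843 named genes. They were chosen by these signals, and the genes described were selected on the same ratios that are given for them, so the ratios are a description. Kc167 is an established line derived from embryos that resembles blood cells (hemocytes), grown here without serum in CCM3 medium. Control cells were incubated for 72 h with neither hormone nor radiation. Ecdysone cells received 10 µM muristerone A, a plant steroid that activates the ecdysone receptor, during those 72 h. Irradiated cells were incubated for 72 h without hormone and then exposed to 280 Gy of gamma rays, while unirradiated cells were mock-treated. Combined cells received the hormone and then the radiation, and every culture rested for 90 min before RNA was taken. Each condition had 1 Affymetrix array, so nothing below carries a replicate error or a test (precision is limited by the number of arrays).

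Ecdysone is the steroid hormone that times molting and metamorphosis in insects. Bound to its nuclear receptor, it switches on a small group of transcription factors, which in turn activate tissue-specific genes. In cell lines of this kind it is known to halt division, change cell shape and prime immune genes. Gamma rays break DNA, and in Drosophila the transcription factor p53 then activates genes of DNA repair and cell death within hours. The crossed design asks whether cells that have already responded to the hormone differ from naive cells in how they respond to radiation.

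Values are MAS5 signals, a background-corrected brightness in arbitrary units. Signals under a floor of about 120 units, near the median of all probe sets, were raised to it before log2 ratios were taken, so a fold with a level at the floor is written as "at least". The departure from the sum is the combined log2 ratio minus the sum of the hormone and radiation log2 ratios. The control array enters that sum more than once, so an error on it moves the combined ratio and the departure in opposite directions. All 3 treated arrays were set against the same control array. "Higher" and "lower" describe these 4 arrays only. In RNA from whole cultures, fewer cells of a type and less RNA per cell cannot be told apart.

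Most probe sets lay within 2-fold of control and within 2-fold of the sum. The log2 ratio of the combined array to control had a median of 0.07 and an SD of 1.23 over the 2492 probe sets. The departure had a median of 0.10 and an SD of 1.32. At least 2-fold higher than control were 492 probe sets (19.7%) and at least 2-fold lower were 389 (15.6%). At least 2-fold above the sum lay 500 (20.1%) and at least 2-fold below it 434 (17.4%). Larger ratios to control were mostly upward, since 32 probe sets were at least 8-fold higher and 4 at least 8-fold lower. Departures of that size were balanced, with 45 above and 44 below the sum.

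**Figure D1:**
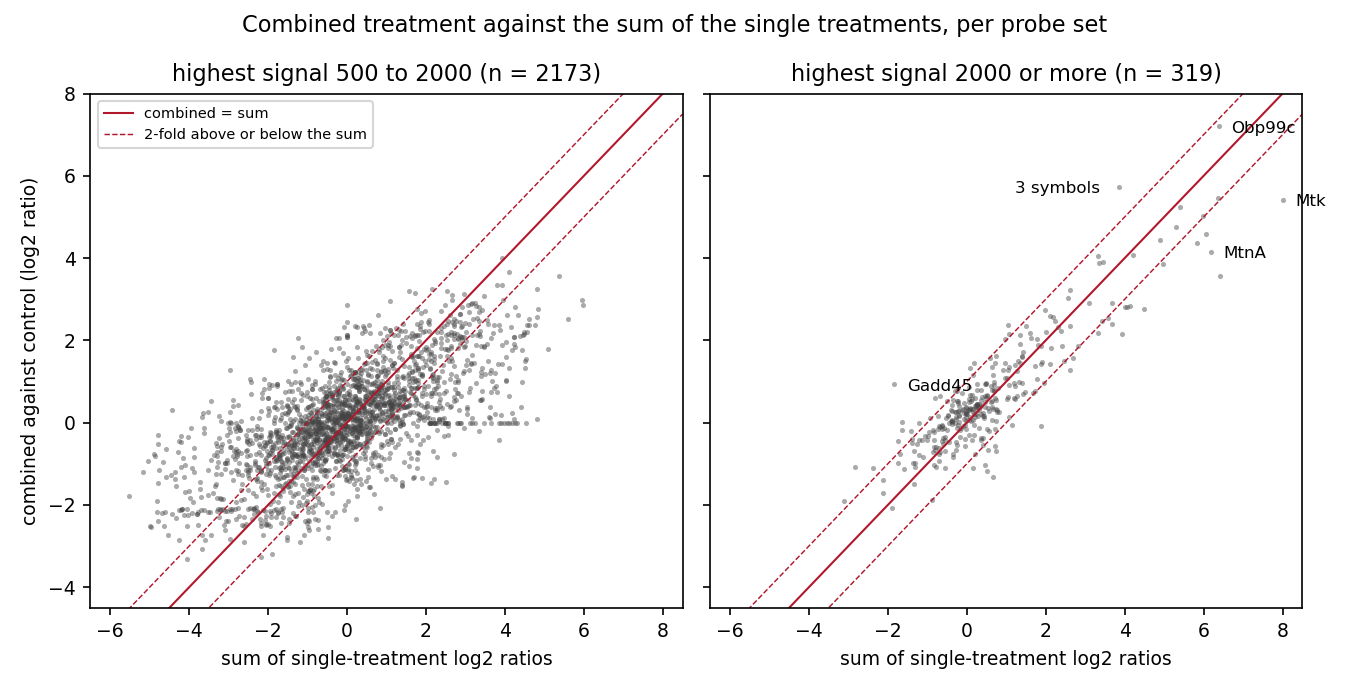
Log2 ratio of the combined array to control (vertical axis) against the sum of the 2 single-treatment log2 ratios (horizontal axis), each point 1 probe set, split by the highest signal on the 4 arrays into 500 to 2000 units (2173 probe sets) and 2000 or more (319). The solid line marks equality and the dashed lines 2-fold, and the brighter probe sets lie closer to the solid line than the dimmer ones. A probe set matched to 3 gene symbols lies above the upper dashed line at a sum of 3.85 and a combined ratio of 5.73.

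The plot of the combined ratio against the sum shows that departures belonged mainly to dim probe sets. Among the 1713 probe sets with a highest signal of 500 to 1000, 24.0% lay at least 2-fold above the sum and 20.8% below it. Among the 131 whose highest signal was 5000 or more, 5.34% lay above and 6.11% below. The median size of the departure was 0.89 in the dimmest class and 0.41 in the brightest. Shares higher than control did not decline with signal, being 17.8% in the dimmest class and 23.7% in the brightest. Shares lower than control went from 18.7% to 2.29%.

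**Figure D2:**
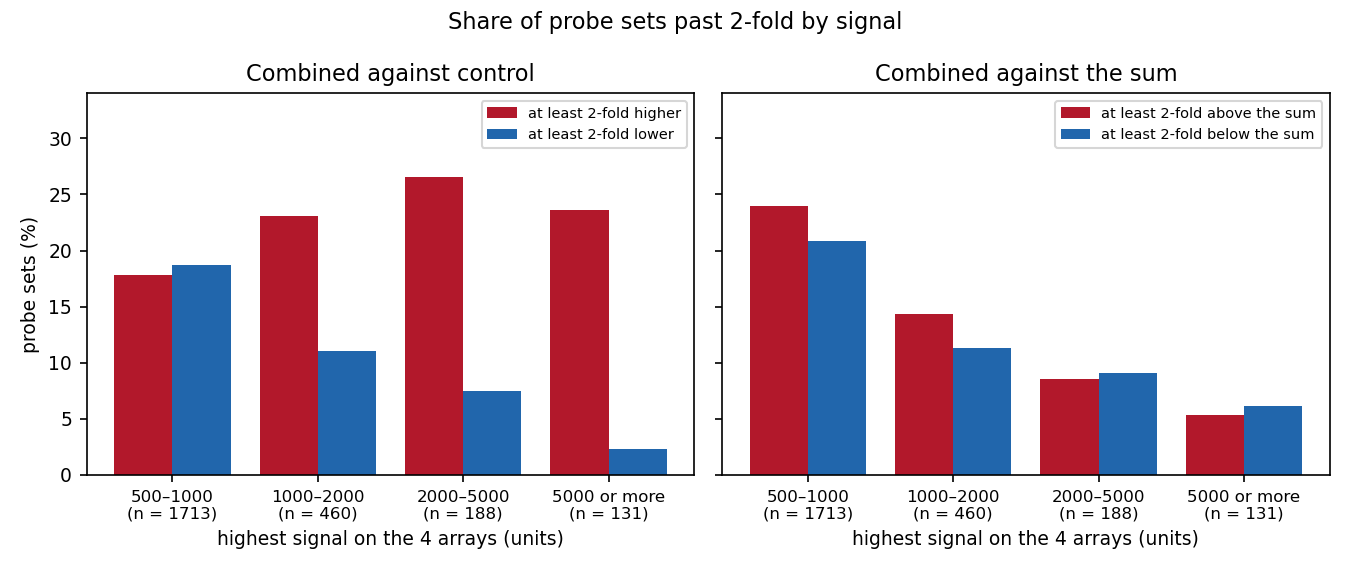
Share of probe sets (vertical axis, %) at least 2-fold higher or lower than control (left) and at least 2-fold above or below the sum (right), in 4 classes of the highest signal on the 4 arrays (horizontal axis, units). The bars for departure shorten from 24.0% and 20.8% at 500 to 1000 units to 5.34% and 6.11% at 5000 or more.

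Part of these counts follows from the calculation. A sum of negative ratios can predict a signal under the floor, which the combined array could not show, and 194 of the 500 probe sets above the sum (38.8%) had such a prediction. With the predicted signal raised to the floor, an alternative chosen after seeing the data, 449 probe sets lay at least 2-fold above. Both single-treatment arrays lay below both other arrays in 233 of the 500, and both lay above in 211 of the 434 below the sum, an order that the subtraction itself favours. In 56 genes with more than 1 probe set over 500 units, the departures of the brightest probe set and the next one correlated at r = 0.03 (Spearman's rho 0.08), and the ratios to control at r = 0.38 (rho 0.44). These correlations run across genes, which are not independent replicates, and both probe sets of a gene come from the same 4 arrays. Where the brightest probe set departed at least 2-fold, in 18 genes, the next one did so in the same direction in 5 and had the other sign in 8.

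Facts of the arrays that bear on these values were few. The median signal of all probe sets was between 113.7 (combined) and 125.0 (ecdysone). Labelled transcripts added to every hybridization, in 9 probe sets, differed between the combined and control arrays by log2 ratios of -1.46 to 0.29, of which 1 reached 2-fold. Their departures from the sum ran from -0.88 to 0.43 with a median of -0.64, so most lay below the sum. Some median departures of gene lists given below are of about this size. Per the file headers, the control array was washed in module 3 and had place 3 in the scan order, and the combined array module 2 and place 2. Condition, wash module and scan order cannot be told apart. Of 10 plasmatocyte (phagocytic blood cell) markers, 4 reached 500 units, with combined log2 ratios of 3.99 for Col4a1, 3.22 for Pxn, 2.71 for vkg and -1.94 for Hml. Of these, vkg reached 500 units only on the combined array, so it was kept for that high value. The hemolectin gene Hml read 922.6 units in control, 284.2 with ecdysone, 1109.7 with irradiation and 240.3 with both. The markers NimC1, crq, eater and Sr-CI, which encode phagocytosis receptors, stayed between 7.6 and 207.6 units on all arrays. Of 8 markers of crystal cells and lamellocytes, other blood cell types, 2 reached 500 units. PPO1 read 319.2, 845.9, 432.5 and 221.2 units in control, ecdysone, irradiated and combined, and msn 370.9, 750.9, 292.7 and 617.9. PPO1 did so only on the ecdysone array. The summed signal of the 8 was 1687.4 units in control and 1769.9 with both. No marker of neurons, muscle or germline reached 500 units. Of 5 fat body markers 3 did, and they differed between the arrays: Yp2 read 23.4, 507.9, 297.8 and 793.9 units, Fbp1 80.4, 197.8, 491.6 and 528.0, and Lsp2 585.8, 645.9, 152.4 and 63.2. Fbp1, too, reached 500 units only on the combined array. The summed signal of the 5 was 1010.3 units in control, 1648.0 with ecdysone, 1060.7 with irradiation and 1578.4 with both, and Fbp2 stayed under the floor throughout. Of 7 epidermis markers 1 did, Cht2, at 180.4, 1007.1, 652.0 and 1104.6 units, and the summed signal of the 7 was 1447.5 units in control and 1743.8 with both. The part of such cells in the results was not tested. Just inside the 500-unit limit was Rtc1, at 500 units on the control array, with a combined ratio of -2.05 and a departure of 0.25. Just outside lay an unnamed probe set with a highest signal of 499.9, a combined ratio of -0.42 and a departure of -1.80.

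With each gene represented by its brightest probe set, the 2068 named genes gave nearly the same shares. Of these genes 421 (20.4%) were at least 2-fold higher than control and 335 (16.2%) at least 2-fold lower. Above the sum lay 424 (20.5%) and below it 366 (17.7%).

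The named genes farthest above control after the combined treatment encode secreted proteins, an immune peptide, metal- and sterol-binding proteins and several proteins of little-studied function. Obp99c, an odorant-binding protein, read 120.5 units in control, 10246 with ecdysone, 55.3 with irradiation and 17755 with both. Its signal was thus 147-fold the control level after both treatments, and its departure from the sum was 0.81, or 1.92 with no floor. Mtk, the antifungal peptide metchnikowin, read 102.0, 6755.4, 536.7 and 5106.2 units in the same order, at least 42.9-fold over control. Mtk lay below its sum, since each treatment alone was at least 4-fold over the floor and the sum predicted 30470 units, a departure of -2.58. Npc2g, of a family of sterol-binding proteins, read 112.2, 4419.2, 203.6 and 3896.3 units and departed by -0.96.

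The metallothionein MtnA, which binds copper and other metals, stood at the floor in control and read 3718.4 units with ecdysone, 275.5 with irradiation and 2133.1 with both. The combined level was below that with hormone alone, and the departure was -2.01. The secreted protein gene fat-spondin read 117.3, 1850.6, 433.4 and 2456.7 units, with the highest level after both treatments and a departure of -1.46, which turned to 0.18 with signal differences added. Col4a1, which encodes a collagen IV chain of basement membranes, read 50.5, 1804.6, 112.8 and 1891.7 units. Its departure of 0.07 was close to 0, as were those of CG4250 (-0.17) and CG42369 (-0.16). In each of these 3 genes the control and irradiated arrays were under the floor, so the radiation ratio was 0 by construction and the combined array simply lay near the hormone array.

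**Figure D3:**
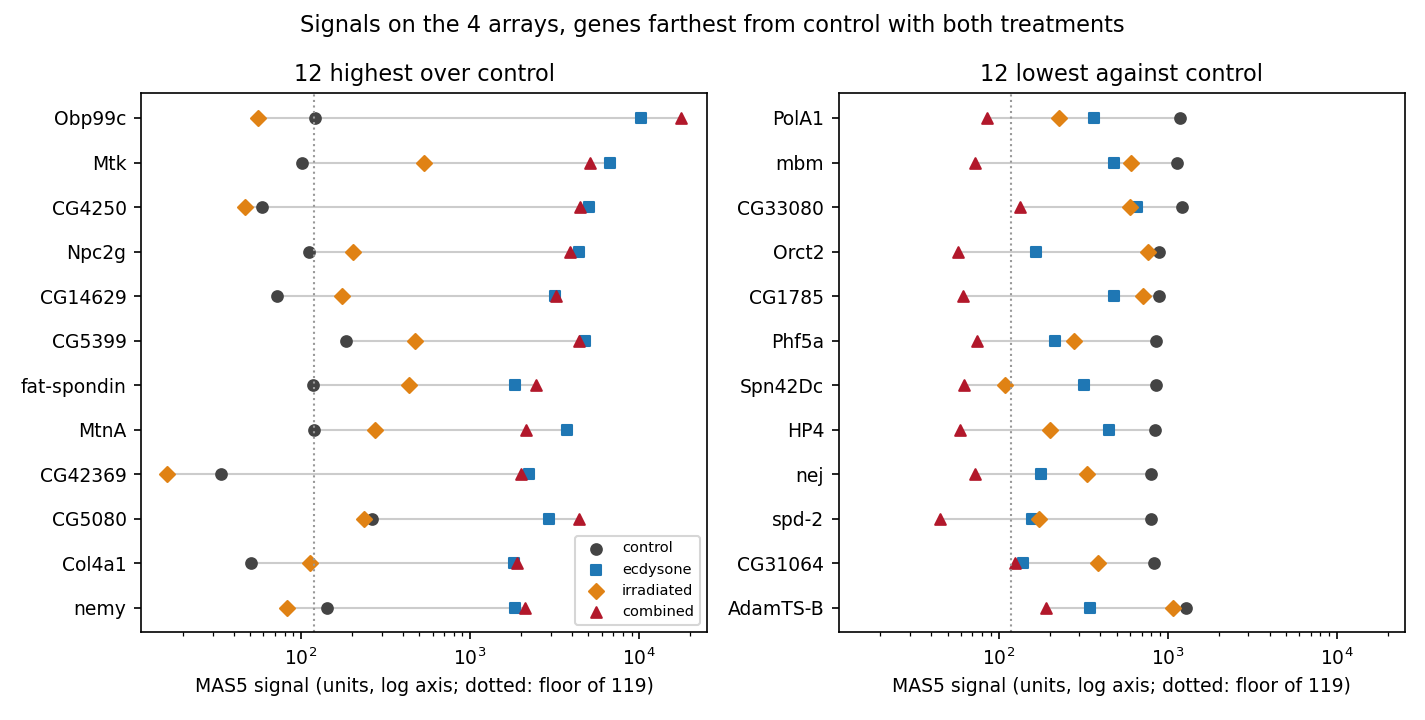
MAS5 signals (horizontal axis, units, log scale) on the control, ecdysone, irradiated and combined arrays for the 12 genes highest over control and the 12 lowest against control after the combined treatment, with the floor dotted. On the left the combined and ecdysone points lie at 1804.6 units or more in every gene, and on the right most combined points lie at or under the floor.

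Genes far below control were dimmer, and most ended under the floor. PolA1, the catalytic subunit of DNA polymerase alpha, read 1182.8 units in control, 368.7 with ecdysone, 227.3 with irradiation and 85.1 with both. That placed it at least 9.94-fold below control, the lowest ratio of all 2068 genes. The sum predicted 70.85 units, which is also under the floor, so the departure of 0.75 came from the floor alone and was 0.00 with the prediction raised to it. Further genes of this set were mbm, a nucleolar protein (at least 9.60-fold lower), Orct2, an organic cation transporter (at least 7.42-fold), and spd-2, a centrosome protein (at least 6.66-fold). The other probe set of spd-2 read 251.6, 216.1, 88.4 and 51.7 units. AdamTS-B, a secreted metalloprotease, read 1277.3, 345.2, 1078.0 and 191.9 units and was lower than control on the ecdysone array as well.

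Mtk and MtnA belong to the genes that each treatment alone left at least 2-fold over control. There were 131 such genes, and 91 of them were also at least 2-fold higher after both treatments, while none was 2-fold lower. The shares over all genes were 20.4% and 16.2%. The median departure of the 131 was -2.16, so the combined level typically lay well under the product of the single folds. The size depends on adding log2 ratios: with the signal differences of the single treatments added instead, the departure was -0.49 for Mtk, -0.86 for MtnA and -0.02 for GstE3. The gene eca, a component of vesicle transport between endoplasmic reticulum and Golgi, read 123.5 units in control, 966.9 with ecdysone, 989.2 with irradiation and 902.2 with both. The sum predicted 7745 units for eca, against 3 treated arrays at about the same level. The other probe set of eca, under 500 units throughout, read 160.0, 160.2, 88.1 and 45.3 units and did not show this rise. GstE3, a glutathione S-transferase, read 61.2, 828.1, 711.9 and 1401.5 units, the highest level being that with both treatments, and still departed by -1.82. Argk1, an arginine kinase that buffers ATP, read 49.8, 1421.2, 614.9 and 934.7 units and departed by -2.97. Its other probe set read 59.4, 613.9, 37.9 and 420.6 units and departed by -0.55.

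At least 2-fold lower with each treatment alone were 112 genes. Of these, 65 were at least 2-fold lower with both and 3 at least 2-fold higher, against 16.2% and 20.4% of all genes. The median departure was 2.14. NHP2, a protein of the small nucleolar ribonucleoprotein complexes that modify ribosomal RNA, read 852.1 units in control, 133.3 with ecdysone, 68.1 with irradiation and 250.7 with both. Its sum predicted 18.62 units, and its departure of 3.75 became 1.08 with the prediction raised to the floor. These median departures follow in part from how the genes were chosen, since an error that puts both single arrays on 1 side of control also puts the sum there.

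In 29 genes the single treatments pointed in opposite directions by at least 2-fold. The combined array was at least 2-fold higher than control in 10 of them and at least 2-fold lower in 6. Over all genes these shares were 20.4% and 16.2%. CG5958 read 555.0 units in control, 5106.1 with ecdysone, 67.8 with irradiation and 2276.4 with both, between its single-treatment levels and 4.10-fold over control. The gene hll, which encodes a long-chain fatty acid ligase, showed a like order at 335.4, 4312.4, 75.6 and 1991.0 units. CG11710 had the opposite order of treatments, with 431.2, 61.3, 1104.2 and 1183.2 units, and the combined level was near that of irradiation alone. The hormone receptor gene rk (rickets, the bursicon receptor) read 286.8, 746.4, 92.9 and 96.2 units, with the combined array at the low level of the irradiated one.

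The 10 genes with the largest positive departure all had control and combined signals of at least 329.1 units and single-treatment signals of at most 171.8 units. CG17666 headed them at 594.2 units in control, 114.2 with ecdysone, 136.5 with irradiation and 735.3 with both, a departure of 4.75. Among the rest were the kinase gene png, with 683.7, 44.7, 32.0 and 359.0 units, and 7B2, which encodes a chaperone of a neuropeptide-processing enzyme, with 470.3, 108.9, 171.8 and 675.6 units. Idi, an enzyme of isoprenoid synthesis, read 583.2, 83.2, 82.3 and 376.6 units. In all 10 genes the sum predicted a signal under the floor, from 20.71 to 47.48 units. With the prediction raised to the floor their departures ran from 1.47 (CRAT) to 2.93 (CG34324).

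The 10 largest negative departures mirrored this pattern. Tsp42Ef, a tetraspanin membrane protein, read 147.4 units in control, 1075.0 with ecdysone, 561.5 with irradiation and 156.9 with both, a departure of -4.71. Octbeta3R, an octopamine receptor, read 225.0, 835.4, 1133.0 and 238.0 units. Ama, a secreted adhesion protein, read 24.7, 569.1, 415.9 and 32.6 units. In 8 of the 10 genes the control or the combined signal was under the floor. Where these 20 genes had another probe set on the array, it stayed under 500 units on every array. The other probe set of 7B2 read 86.9, 23.3, 22.5 and 37.8 units, and that of beat-IIb, an immunoglobulin-domain protein, 65.7, 38.7, 56.0 and 34.3 units. Both were thus under the floor throughout. For rdgA, with a departure of -4.3, another probe set read 147.5, 105.6, 44.6 and 446.0 units and departed by 2.22. A further one departed by 0.23. Those of Ars2 (0.69) and PTP-ER (0.78) also lay above the sum, and those of Cda4 departed by 0.71, 0.71 and -1.17.

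Departures were then read in the 357 genes whose mean signal over the 4 arrays was at least 1000 units, a limit chosen after seeing the data. Of these, 86 were at least 2-fold higher than control, 18 at least 2-fold lower, 27 at least 2-fold above the sum and 25 below it. The shares over all genes were 20.4%, 16.2%, 20.5% and 17.7% in that order. Gadd45, a stress-response gene induced by DNA damage, had the largest positive departure among the 357. It read 1448.7 units in control, 338.8 with ecdysone, 1727.2 with irradiation and 2765.5 with both. The hormone array was the lowest of the 4 and the combined array the highest, 6.85-fold over the 403.9 units of the sum, a departure of 2.78. BI-1, a Bax inhibitor homolog of the endoplasmic reticulum, read 929.1, 657.1, 1495.5 and 2540.9 units in the same order of arrays. The other probe set of BI-1 was under the floor on all arrays. RtcB, an RNA ligase, read 863.7, 472.0, 1661.6 and 2176.1 units, and the little-studied CG2909 read 675.4, 442.6, 2125.1 and 3504.9 units. In all 4 genes the ecdysone array was the lowest, the irradiated array was above control and the combined array was the highest. With signal differences added instead of log2 ratios, their departures were 2.16 for Gadd45, 1.05 for BI-1, 0.78 for RtcB and 0.89 for CG2909.

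Other bright genes above the sum had the combined array between the extremes. Ids, the lysosomal enzyme iduronate 2-sulfatase, read 1670.5 units in control, 153.1 with ecdysone, 1743.4 with irradiation and 510.4 with both, a departure of 1.68. Fib, the nucleolar methyltransferase fibrillarin, read 2247.8, 453.5, 1570.1 and 1071.9 units and departed by 1.76. CG13674 was the brightest of the set at 12568, 10132, 4963.2 and 10990 units, a departure of 1.46, while its other probe set read 1802.7, 2200.6, 1811.7 and 2019.1 units and departed by -0.13. The low value on the irradiated array was thus seen with 1 of its 2 probe sets.

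Below the sum, amd had the largest departure of the bright genes. It encodes a decarboxylase related to dopa decarboxylase, and it read 139.0 units in control, 3291.6 with ecdysone, 501.0 with irradiation and 1645.1 with both. The combined level was 11.8-fold over control and 7.21-fold below the 11860 units of the sum, a departure of -2.85. The other probe set of amd read 272.1, 473.8, 712.4 and 546.6 units and departed by -1.18. Gp93, a chaperone of the endoplasmic reticulum, showed a different pattern at 1922.8, 2631.6, 2020.1 and 853.7 units, with only the combined array low. Mic26-27, a mitochondrial inner membrane protein, read 1182.5, 1079.4, 2065.2 and 475.1 units, and Prosalpha4, a proteasome core subunit, 1113.2, 924.5, 2253.2 and 689.2 units. In these 3 genes the combined array was the lowest of the 4, although no single-treatment log2 ratio of theirs was under -0.27.

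**Figure D4:**
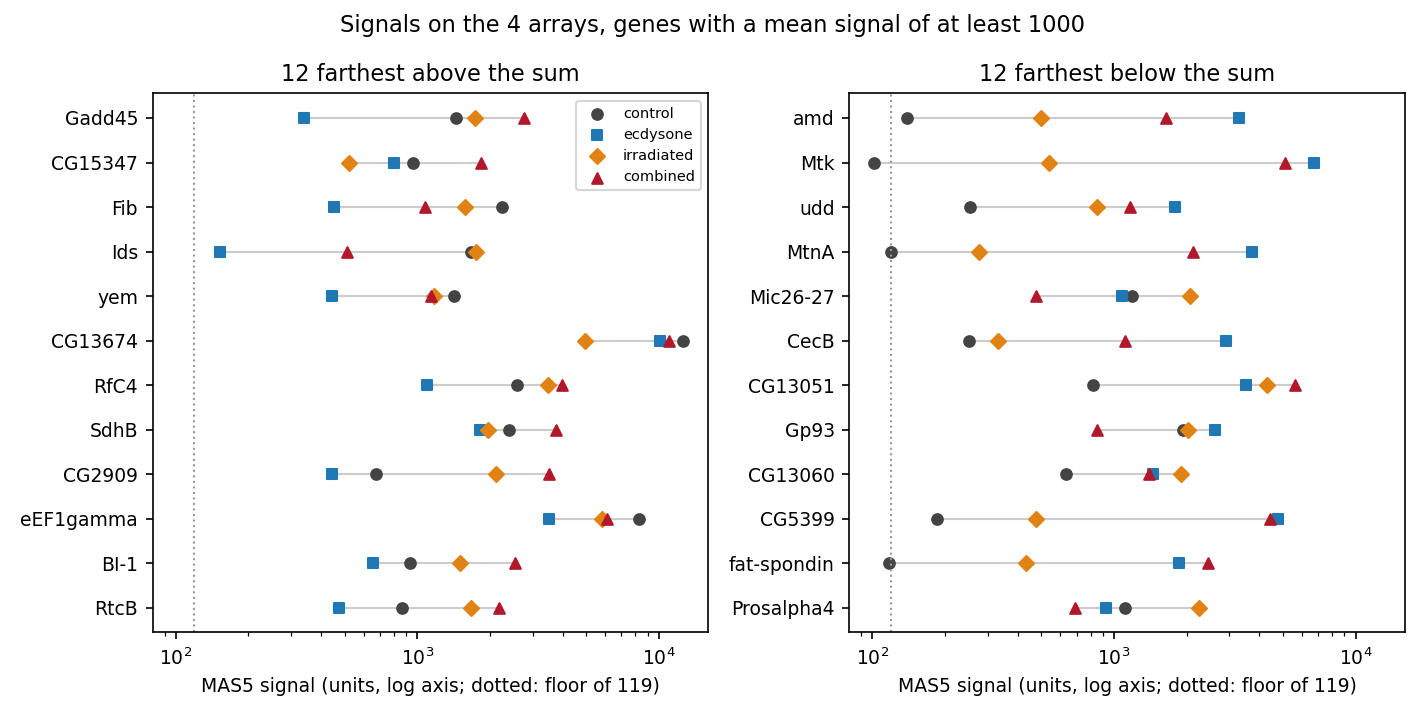
MAS5 signals (horizontal axis, units, log scale) on the 4 arrays for the 12 genes farthest above and the 12 farthest below the sum of the single ratios, among genes with a mean signal of at least 1000. On the left Gadd45, CG15347, RfC4, SdhB, CG2909, BI-1 and RtcB have their highest signal on the combined array, and on the right Mic26-27, Gp93 and Prosalpha4 have their lowest there.

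Several bright genes were highest on the combined array with departures under 1. Pxn, peroxidasin, a matrix peroxidase made by hemocytes, read 598.1 units in control, 3089.1 with ecdysone, 711.0 with irradiation and 5558.1 with both, 9.29-fold over control. Tsp42Ed, a tetraspanin, read 997.7, 1730.2, 3410.2 and 8161.4 units, or 8.18-fold over control, with each treatment alone also above control. Cyp4e2, a cytochrome P450, read 373.8, 751.7, 734.7 and 2499.2 units, and Tep4, a thioester protein of innate immunity, 813.8, 1184.1, 1589.1 and 4137.8 units. All 4 genes so far had the control array lowest and the combined array highest. Of the ferritin subunits that store iron, Fer1HCH read 1188.0, 4036.2, 1744.6 and 5953.5 units and Fer2LCH 1696.1, 4471.0, 2577.8 and 7791.8 units. Their departures of 0.01 and 0.20 were small, so both combined levels lay near the sum.

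Among the 130 probe sets with a mean signal of at least 1000 that the platform annotation matched to no gene or to several, 1 stood out, and it was singled out after its values were seen. It was matched to 3 gene symbols, so no gene is named for it. Its signal was 264.9 units in control, 673.2 with ecdysone, 1505.9 with irradiation and 14074 with both. The combined signal was 53.1-fold over control and lay over the 3827 units of the sum. The departure was 1.88, and 2.88 with signal differences added. Of the 130 probe sets, 16 were at least 2-fold higher than control and 7 lower, and 6 lay above and 7 below the sum. Over all 2492 probe sets these shares were 19.7%, 15.6%, 20.1% and 17.4%.

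The bright genes farthest below control differed in where the combined array lay relative to the hormone array. Inos, the synthase that makes inositol phosphate, read 9128.0 units in control, 2043.8 with ecdysone, 9296.2 with irradiation and 2767.9 with both. The fatty acid-binding protein gene fabp read 2258.6, 561.8, 2446.3 and 534.8 units, 4.22-fold below control. For both genes the irradiated array lay near control and the combined array near ecdysone. Clic, a chloride intracellular channel protein, read 1908.8, 897.8, 1309.9 and 387.0 units, lower with both treatments than with either alone. The receptor tyrosine kinase inhibitor sty (sprouty) read 2240.3, 1046.4, 2605.0 and 609.5 units, and here too the combined array was the lowest.

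Gene lists were read the same way, over those genes that reached 500 units. In the list of p53-dependent radiation response genes, 8 of the 16 on the array did so. At least 2-fold above the sum were 6 of the 8 and none was 2-fold below, against 20.5% and 17.7% of all genes, and the median departure was 1.40 against 0.09. The median became 1.05, with 5 genes above, when the prediction was raised to the floor, and 0.82 with a floor of 250 units. Addition of signal differences left Gadd45 (2.16) and Corp (2.31) at least 2-fold above, with Ku80 at 0.99, rad50 at 0.79 and RnrL at 0.68. At least 2-fold higher than control were 4 of the 8, and 1 was lower, against 20.4% and 16.2% of all genes. Besides Gadd45, the p53 regulator Corp read 180.8 units in control, 27.2 with ecdysone, 159.3 with irradiation and 590.9 with both. The double-strand break repair gene rad50 read 216.6, 155.8, 562.0 and 865.5 units, and Ku80, of the end-joining pathway, 289.9, 279.2, 403.3 and 779.0 units. In all 3 genes the combined array was the highest of the 4. Corp and Ku80 reached 500 units only on that array, so this place was fixed by the filter. The filter also favours their count above the sum. RnrL, the large subunit of ribonucleotide reductase, read 434.1, 95.9, 709.0 and 629.4 units. In p53 itself, with 279.1, 543.8, 943.3 and 1144.7 units, each treatment alone was above control and the departure was -0.68. Traf4, an adaptor of stress kinase signalling, read 506.8, 22.8, 75.9 and 24.9 units. It was counted above the sum only because 3 of its arrays were at the floor.

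Antimicrobial peptide genes lay on the other side. Of 9 on the array 5 reached 500 units, all 5 were at least 2-fold higher than control, and 4 were at least 2-fold below the sum, against 20.4% and 17.7% of all genes. Their median departure was -1.34, and its range over the alternative scalings and floors was -1.58 to -1.23. With signal differences added, only CecB (-1.43) among them stayed at least 2-fold below, while Mtk (-0.49), AttD (-0.85) and DptB (-0.29) did not. DptB, diptericin, read 3563.4 units in control, 26438 with ecdysone, 7762.9 with irradiation and 25092 with both, so the combined array lay near ecdysone alone. The sum predicted 57600 units for DptB, more than the highest signal in the whole table, 54676. CecB, a cecropin, read 250.4, 2899.9, 330.4 and 1108.7 units and AttD, an attacin, 1519.0, 5663.2, 2504.4 and 3697.1 units. In CecB and AttD, as in Mtk, the combined signal was lower than with the hormone alone. Drsl5, of the drosomycin family, was the exception at 127.7, 103.5, 118.6 and 527.6 units, at least 2-fold from control only with both treatments. It reached 500 units only on the combined array, so it was kept for that high value. Mtk and CecB were also under 500 units in control, so the filter favours their count above control.

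Genes of the ecdysone response mostly read higher with the hormone alone than with both treatments. Of 25 on the array 6 reached 500 units, 5 of them at least 2-fold over control with both treatments against 20.4% of all genes, and the median departure was -0.70. Eip78C, Eip93F and Hr4 were under the floor without hormone and passed the filter only through hormone-treated arrays, which favours that count over control. Eip78C, a nuclear receptor of the early response, read 32.0 units in control, 1848.0 with ecdysone, 47.9 with irradiation and 947.8 with both, at least 7.96-fold over control. Eip93F, a transcription factor of late metamorphosis, read 53.2, 755.2, 50.5 and 338.0 units. EcR, the receptor itself, read 212.2, 535.6, 308.5 and 286.6 units, with the combined array below the irradiated one. EcR and Eip93F reached 500 units only on the ecdysone array, so their lower combined signal was fixed by the filter. Hr4 and Cth departed by less than 0.5. The combined signal was under that of ecdysone alone in 5 of the 6 genes, ImpL2 being the exception. In Cth this log2 ratio was only -0.08. Over all genes the log2 ratio of combined to ecdysone had a median of 0.07.

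**Figure D5:**
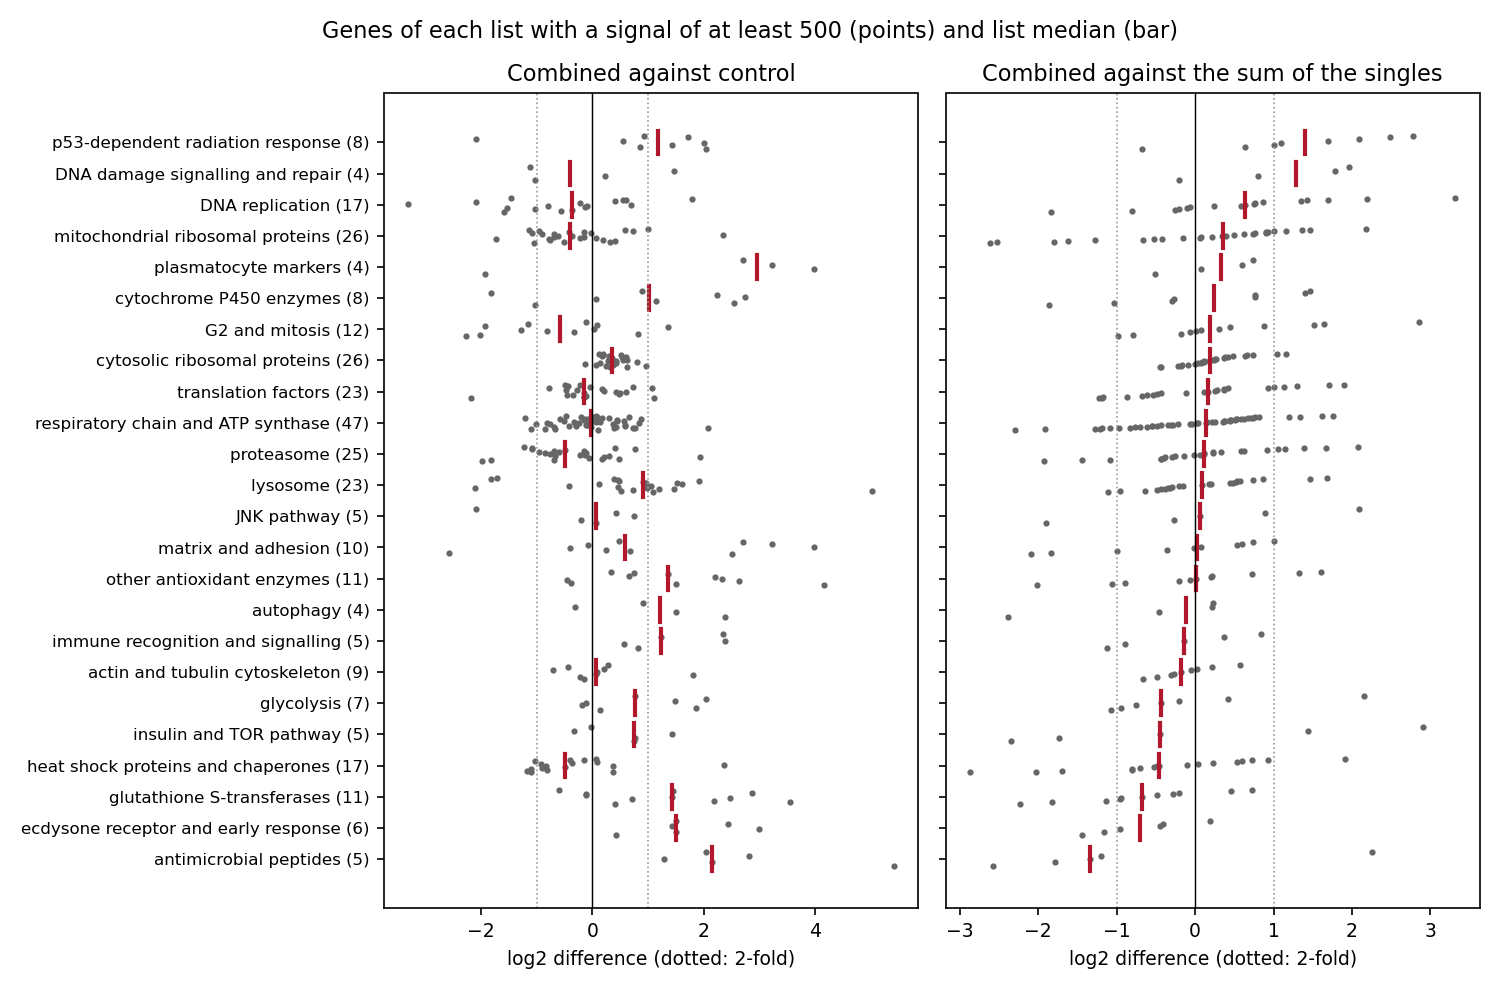
Log2 ratio of the combined array to control (left) and departure from the sum (right) on horizontal axes, for each gene of at least 500 units (points) in lists with at least 4 such genes (number in brackets), with list medians as bars and 2-fold as dotted lines. The p53 list has the highest median departure (1.40), then DNA damage signalling and repair (1.29), and the antimicrobial peptides the lowest (-1.34). With the prediction raised to the floor, the p53 median was 1.05 and that of DNA damage signalling and repair 1.08.

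Among glutathione S-transferases, which conjugate reactive compounds, 6 of 11 were at least 2-fold higher than control and none was 2-fold lower, against 20.4% and 16.2% of all genes. The other 5 lay between log2 ratios of -0.61 (GstD7) and 0.71 (GstO3). The median departure was -0.68, and 3 were at least 2-fold below the sum, against 17.7% of all genes. With signal differences added, the departures of these 3 were -1.66 for GstD2, -0.02 for GstE3 and -0.26 for GstE1. GstD2, at 227.9, 426.1, 760.7 and 303.6 units, passed the filter only through the irradiated array. Its combined signal below that array was thus fixed by the filter, which also favours its place below the sum. GstD1 read 4855.7 units in control, 3918.5 with ecdysone, 25936 with irradiation and 13040 with both, so that the combined level was below that of irradiation alone. GstE1, at 628.3, 1631.0, 2414.9 and 2859.9 units, and GstE6, at 368.4, 903.5, 1606.1 and 2053.8 units, were highest with both. Of 11 other antioxidant genes 6 were at least 2-fold higher and none 2-fold lower, Sod2 (-0.39) and cnc (-0.46) being under control, with a median departure of 0.01 that was -0.07 with quantile normalization. Trxr1, thioredoxin reductase, read 1509.8, 1541.3, 2282.4 and 3840.0 units. Cat, catalase, read 283.7, 1947.2, 298.0 and 1771.4 units, near the hormone array.

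Of 17 DNA replication genes, 6 were at least 2-fold lower than control and 1 higher, against 16.2% and 20.4% of all genes. At least 2-fold above the sum were 5 and below it 1, against 20.5% and 17.7%. The clamp loader subunit RfC4 read 2589.3 units in control, 1092.2 with ecdysone, 3489.4 with irradiation and 3962.0 with both. RPA3, of the single-strand binding complex, read 907.8, 356.0, 1205.8 and 1204.8 units. In both genes only the hormone array was below control. PCNA, the sliding clamp, differed from them, with 3727.2, 1771.0, 4397.4 and 1808.9 units and the combined array at the hormone level. Of 12 genes of G2 and mitosis 5 were at least 2-fold lower and 1 higher, against the same 16.2% and 20.4%. CycB, cyclin B, read 1440.1, 948.5, 930.5 and 354.0 units, 4.07-fold below control and lower than with either treatment alone. The exception, trbl, which encodes the inhibitor of the Cdc25 homolog String, read 732.6, 645.5, 1553.0 and 1868.5 units.

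Of 17 chaperone genes 4 were at least 2-fold lower than control and 1 higher, against 16.2% and 20.4% of all genes, and the median departure was -0.46. Among the chaperonin subunits, which fold actin and tubulin, CCT1 read 1448.3 units in control, 1116.2 with ecdysone, 1637.8 with irradiation and 776.1 with both. CCT6 read 1617.6, 1328.2, 1590.1 and 748.4 units. Other subunits did not share this order: CCT4 read 2489.1, 1280.0, 2202.5 and 1867.1 units and CCT5 1118.6, 717.7, 820.7 and 1004.6 units, so in both the hormone array was the lowest.

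Cytosolic ribosomal proteins, among the brightest genes, stayed close to control. All 26 were within 2-fold of control, 25 of them slightly above, with a median log2 ratio of 0.35 and a median departure of 0.19. This small shift turned with the scaling, since quantile normalization gave a median log2 ratio of -0.05. Lysosomal genes had 8 of 23 at least 2-fold higher and 3 lower, against 20.4% and 16.2% of all genes, with a median departure of 0.09. CtsL1, a lysosomal cysteine protease, read 3239.0 units in control, 10787 with ecdysone, 2592.8 with irradiation and 9902.3 with both, and Npc2a 1286.9, 4110.3, 1028.7 and 4878.1 units. In both genes the combined array lay near the hormone array. Of 7 glycolytic enzyme genes 3 were at least 2-fold higher than control and none 2-fold lower, against 20.4% and 16.2% of all genes, with a median departure of -0.43. Ald1, at 2109.5, 6469.8, 2120.8 and 8711.6 units, and Gapdh1, at 1070.5, 3930.2, 2052.8 and 3895.2 units, had the combined array near or above the hormone array. Pfk, at 405.9, 1046.9, 363.2 and 446.9 units, Pgi, at 345.1, 584.3, 302.0 and 304.1, and Eno, at 1004.0, 1372.7, 914.3 and 927.1, had it near control. Pfk and Pgi passed the filter only through the ecdysone array, so a combined signal below the hormone array was fixed by the filter. Pglym78, at 802.8, 1324.9, 186.1 and 1365.3 units, departed by 2.15, and Pfk by -1.07.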

How the data were processed

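Total RNA of 4 Kc167 cultures was biotin-labelled and hybridized to Affymetrix DrosGenome1 arrays, per the labels' protocols, and each array's intensity values were deposited by the authors as MAS5 signals, per the submitters' processing notes. No MAS5 version is given in the sources used here. The 44 control probe sets were left out. Each array already had a trimmed mean near 200 units (199.8 to 199.9 with 2% trimmed at each end), and no further scaling was applied. Probe sets with a signal of at least 500 on at least 1 array were kept, signals under the floor of about 120 were raised to it, and log2 differences were taken (Python 3.11.15; pandas 2.3.3; numpy 2.4.6; scipy 1.17.1). With 1 array a condition no test was run, and a size of 2-fold served as the rule. Of the 2492 probe sets, 2131 had 1 gene symbol (2126 updated through the Release 6 annotation), 58 several and 303 none, and the probe set of highest mean signal stood for a gene.

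Genes named are the 12 with the highest and lowest combined ratio, the 10 with the largest departure each way, 6 for each pattern of single treatments, and members of 31 gene lists. Genes with a mean signal of at least 1000 and unnamed probe sets of that brightness were added after their values were seen. The comparison, the members and the lists were chosen with earlier results of these data known. The counting was checked on simulated data. Alternatives were median scaling, quantile normalization, other floors, signal limits and fold thresholds, the mean of a gene's probe sets, and addition of signal differences. Present and absent calls and scanner images were not used here.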

Additional observations from a re-analysis of the deposited data

Results flagged for a closer look

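Among the genes named here, 25 had a treatment at least 2-fold to opposite sides without and with the other treatment. Most of the 25 are the genes picked for the 10 largest departures each way, and a large departure favours such a reversal. The remaining genes were not counted, so no share over all 2068 is given. Each reversal rests on single arrays, and the difference was not tested. In 10 of the 25 genes each treatment gave a lower signal alone and a higher one on top of the other. The log2 difference was 4.75 for CG17666, 4.48 for l(1)G0469, 4.26 for CG13046, 4.25 for CG34324 and 4.13 for Tim17b2. The others of that kind were png (4.12), CG7744 (4.04), CRAT (3.99), 7B2 (3.96) and Idi (3.96). The sum predicted a signal under the floor in all 10, and with the prediction raised to the floor the values ran from 1.47 to 2.93.

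The opposite order, higher alone and lower on top of the other treatment, was seen for both treatments in Tsp42Ef (-4.71), rdgA (-4.30), Ars2 (-4.28), Cda4 (-4.26), beat-IIb (-4.17) and Octbeta3R (-4.14). D12 (-4.11), Ama (-4.06), PTP-ER (-4.02), CG31650 (-3.93) and ND-ASHI (-2.30), a subunit of respiratory complex I, were alike. Another probe set of rdgA departed by 2.22, and those of Ars2 (0.69) and PTP-ER (0.78) also lay above the sum. The chaperonin subunit CCT7, at 255.3 units in control, 368.2 with ecdysone, 601.4 with irradiation and 65.6 with both, was higher with irradiation in naive cells and lower in hormone-treated cells, a difference of -2.87.

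For amd the irradiation ratio was 1.85 in naive cells and -1.0 in hormone-treated cells, a difference of -2.85. For NHP2 the hormone ratio was -2.68 without and 1.08 with irradiation, a difference of 3.75. The proteasome subunit Rpn8 read 575.9, 29.0, 278.5 and 243.1 units, and its irradiation ratio was -1.05 without and 1.03 with hormone, a difference of 2.08 that includes an ecdysone array under the floor.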

How the results depend on the processing

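Counts are given in the order higher than control, lower than control, above the sum and below the sum, against 492, 389, 500 and 434 as reported. With a signal limit of 250 units they were 1295, 1423, 1742 and 1792, with more probe sets counted. With a limit of 1000 they were 187, 68, 89 and 77, and with a mean signal of at least 1000, chosen after seeing the data, 102, 28, 33 and 35. Without probe sets at the floor they were 287, 222, 290 and 255. A threshold of 1.5-fold gave 751, 634, 812 and 674, and 3-fold gave 291, 192, 271 and 249. Median scaling (563, 338, 590, 380), quantile normalization (473, 415, 471, 473), other floors, the mean of a gene's probe sets and addition of signal differences stayed within 1.5 times.

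Of values for named genes, 5268 under an alternative kept their direction and side of 2-fold, or moved little, 216 moved and 4 reversed. Addition of signal differences gave departures of 0.18 for fat-spondin, 0.17 for CG33080 and -1.04 for CG5958, and a floor of 250 gave -0.01 for CG5958. For departures under addition the model itself differs, and for the floor the cause was not tested. No paired analysis was possible because each condition has 1 array. No array could be left out for the same reason. Signals near the floor limit the dim genes: 579 probe sets had at least 1 array at it.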

Other observations

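Of 25 proteasome genes, 5 were at least 2-fold lower than control after both treatments and 1 was higher, against 16.2% and 20.4% of all genes, with a median log2 ratio of -0.49. The lid subunit Rpn12 read 645.0 units in control, 692.2 with ecdysone, 578.0 with irradiation and 162.9 with both, and the base ATPase Rpt2 read 967.3, 596.7, 939.7 and 272.9 units. In both the combined array was the lowest of the 4. Prosbeta7, a core subunit, differed, with 972.3, 619.2, 1245.6 and 1652.8 units and the combined array highest.

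Mitochondrial ribosomal proteins had 4 of 26 genes at least 2-fold lower and 2 higher, and 5 each above and below the sum, against 16.2%, 20.4%, 20.5% and 17.7% of all genes. Of 47 genes of the respiratory chain and ATP synthase, 3 were at least 2-fold lower and 1 higher than control, against the same 16.2% and 20.4%, and the median log2 ratio of -0.03 became 0.06 with median scaling. SdhB, of succinate dehydrogenase, read 2389.6, 1815.3, 1953.9 and 3757.7 units, and ATPsyndelta, of ATP synthase, 2365.0, 2143.5, 2939.5 and 1095.4 units, so these bright genes of 1 organelle lay on opposite sides of control. Among 8 cytochrome P450 genes, Cyp6a8 read 500.1, 5788.9, 518.2 and 2908.8 units, lower with both treatments than with the hormone alone. Cyp6d5 read 52.1, 333.0, 47.0 and 563.6 units, higher with both, and it reached 500 units only on that array. Of 4 autophagy genes, the receptor gene ref(2)P read 380.6, 657.4, 861.9 and 1079.5 units and Atg8a 1522.8, 1912.9, 1945.7 and 2870.0 units. In both, each treatment alone was above control and both together highest. The other genes differed: Atg9, at 961.4, 939.0, 683.9 and 776.5 units, was highest in control. Atg2, at 95.6, 1008.1, 381.5 and 617.4 units, was highest with the hormone alone.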
